A study of Homo sapiens with 43 samples.

Results

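The light and the heavy size fraction of a crosslinked membrane were compared in HEL cells, a human erythroleukemia line, that stably expressed U2AF1 with the S34F substitution. The comparison used 6 of the 43 samples of the series: 3 light-fraction and 3 heavy-fraction freCLIP libraries, chosen by their labels and count columns, among 17 freCLIP libraries and 34 samples with a count column. In freCLIP, RNA crosslinked to FLAG-tagged U2AF1 by ultraviolet light is immunoprecipitated, run on a gel and blotted, and the blot is cut into a light piece of 37 to 65 kD and a heavy piece of 65 to 110 kD. All 6 libraries came from cells with the same transgene, which had been induced for 48 hours with 1 µg/ml of doxycycline according to the labels. The libraries used for comparison came from 2 sister lines with the same induction, 1 with a wild-type U2AF1 transgene (WT, 3 light and 4 heavy) and 1 with U2AF1 Q157R (2 light and 2 heavy). The labels do not say whether a line was 1 clone, which promoter drove the transgene, or whether the endogenous U2AF1 was still made, and the HEL cells are a cancer line that stands in for myeloid disease. The labels call the replicates biological without saying that they were separate cultures, so p-values measure the spread between these samples, which may be technical in part.

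U2AF1 is the small subunit of U2AF, the factor that marks the 3′ splice site before the U2 snRNP joins it. U2AF1 contacts the AG dinucleotide at the end of the intron, and U2AF2, the large subunit, binds the pyrimidine tract upstream of it. The S34F substitution lies in a zinc finger of U2AF1, recurs in myelodysplastic syndrome and acute myeloid leukemia, and is known to change which base is preferred just before the AG. A complex of higher mass runs higher on the blot. The question of the comparison was whether RNA from the light piece was drawn from other places than RNA from the heavy piece. The counts do not tell whether the mass came from attached protein or from attached RNA.

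Well-counted genes had like shares of the S34F light and heavy RNA with few exceptions, while genes with few counts scattered widely. An entry, here called a row, is 1 annotated gene of the deposited count table. The row U47924.2 is annotated as an RNA antisense to C12orf57, and its interval covers the U7 snRNA gene on the other strand. Its count was 5.5-fold higher in the light fraction, without showing which of these RNAs the reads came from. AC010970.1, a pseudogene that lies beside a ribosomal RNA pseudogene, was 4.38-fold higher, and SPSB4, which encodes an adaptor of a ubiquitin ligase, was 20.4-fold higher. These 3 rows were called of 6833 tested (0.0439%), all 3 higher in the light fraction and 0 lower, by edgeR's quasi-likelihood test with Benjamini-Hochberg adjustment at 0.05. Before adjustment, 313 of the 6833 rows had p under 0.05 in this test, no more than that threshold would give with no difference. DESeq2 called 6 rows higher and 0 lower, and edgeR with the replicate number as a block called 8 (0.117%), all higher.

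The reads themselves fell differently between the fractions. Reads that aligned to several places made up 37.8%, 37.9% and 40.9% of the reads in the light libraries 1 to 3 and 29%, 27.1% and 26.6% in the heavy libraries. The light libraries were all above the heavy ones, by 11.3 percentage points (38.9% ± 1.76 against 27.6% ± 1.31, SD, n = 3 each, exact two-sided permutation p = 0.1, the smallest that 3 against 3 allows). The same order held in the WT line, at 36.2% to 37.8% in light and 21.9% to 33.2% in heavy libraries, and in Q157R, at 46.6% to 47.5% and 32.8% to 35.8%. Reads in no annotated feature made up 41.4% ± 4.96 of the S34F light and 58.4% ± 1.66 of the heavy libraries, again without overlap (exact permutation p = 0.1). Reads counted in gene rows were 1.15% to 1.91% of all reads, so every result below rests on that small share.

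**Figure D1:**
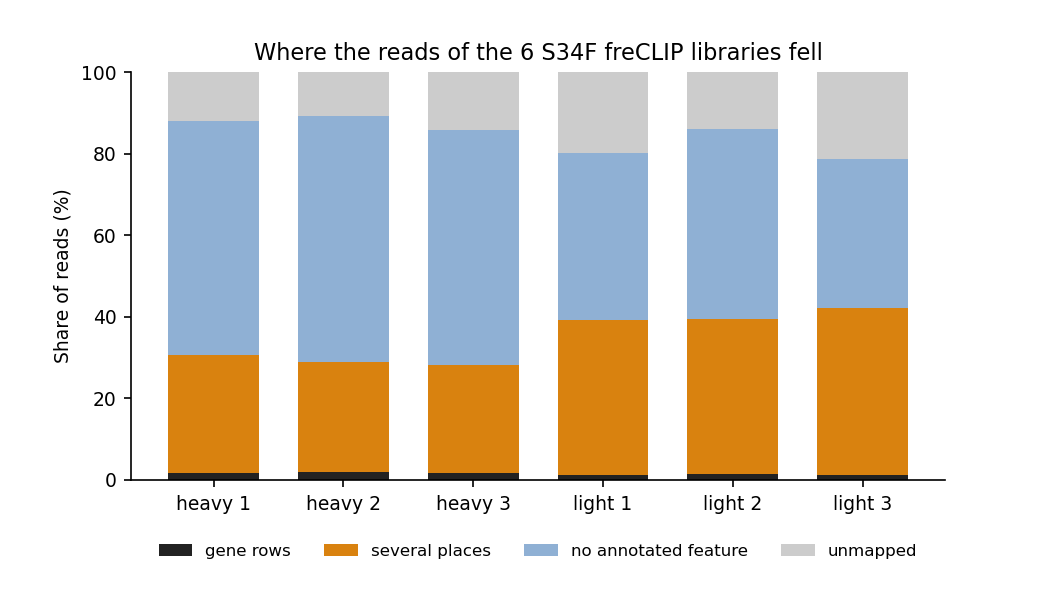
Stacked bars give the share of reads (%) in each of the 6 S34F libraries that were counted in gene rows, aligned to several places, fell in no annotated feature or stayed unmapped. The segment for several places is 26.6% to 29% in the heavy and 37.8% to 40.9% in the light libraries.

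The counts that named a gene summed to 257716, 137886 and 616034 in the heavy libraries 1 to 3 and to 172738, 48359 and 181402 in the light ones, so that 1 count was worth 1.92 to 21.2 CPM (counts scaled to library size with TMM). The table holds reads and no molecular identifiers, so copies of 1 molecule may count as separate reads. The SDs and SEs given here are therefore taken from the spread between libraries and not from the counts of 1 library. Spearman coefficients between libraries, over rows with at least 10 counts in the pair, were 0.632 to 0.725 within the heavy fraction and 0.322 to 0.544 within the light one, and light library 3 had the lowest with every other library. Without light library 3, edgeR called 2 rows, U47924.2 at a log2 fold change of 2.74 and AC010970.1 at 2.31. In the RNA-seq of the induced S34F line, all 6 erythroid and all 3 megakaryocyte markers were present (GATA1 at 143 and 153 CPM, ITGA2B at 719 and 1110), while CD3E, CD14, MPO and EPCAM were each under 0.4 CPM in both libraries, and CD79A and COL1A1 were between 0.948 and 1.24. LYZ, a monocyte and granulocyte gene that many myeloid lines express, was at 49.0 and 50.7 CPM. None of the lymphoid and of the monocyte and granulocyte marker rows had enough freCLIP counts to be tested.

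The rows of the table have to be read with the gene on the other strand in view. The strand setting of the counting is not given in the sources used here, and 84.2% ± 0.404 of the heavy and 83.2% ± 1.1 of the light gene counts (SD, n = 3 each) fell in the 38.3% of rows whose exons are overlapped by a gene on the opposite strand (exact two-sided permutation p = 0.3). Where a row has such a gene, it is named with the row below. The mitochondrial genome was also looked at by strand, since nearly all its mRNAs are read from one strand. MT-ND6, the complex I subunit encoded alone on the other strand, had 9330 CPM per kilobase of exon in the light and 4580 in the heavy fraction, whereas the 12 mRNA genes of the main coding strand had 17.9 to 639 in the light fraction. In the RNA-seq of the same line MT-ND6 was at 508 CPM per kilobase and the 12 others at 392 (MT-ATP8) to 3950 (MT-CO1, a cytochrome oxidase subunit), with MT-ATP8 alone below MT-ND6. No annotated gene overlaps MT-ND6 on the opposite strand, and the cause of its high freCLIP value was not tested.

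The called row with the most counts was U47924.2 (ENSG00000272173.1), an antisense RNA on the minus strand of GRCh38 at chr12:6943508-6944604. All of its exon bases lie inside C12orf57, and 67.2% of them lie opposite C12orf57 exons. The U7 snRNA gene RNU7-1 lies inside the interval on the plus strand at chr12:6943816-6943878. U7 is the small nuclear RNA that pairs with replication-dependent histone pre-mRNAs and directs the cut at their 3′ end. Its sequence, from GENCODE release 29, is shown because it is the only small RNA opposite this row, all in lower case since no part of it was tested.
RNU7-1: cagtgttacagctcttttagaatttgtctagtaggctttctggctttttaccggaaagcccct

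The row also holds 3′ splice sites of C12orf57, of which 3 are shown with the last 3 bases of the intron and the first base of the exon in capitals, read on the plus strand.
C12orf57, chr12:6943522-6943544: gcctttactgccgaatcCAGGtc
C12orf57, chr12:6944087-6944109: tttacctccgctgaaccTAGAgc
C12orf57, chr12:6944360-6944382: tcttattgggttacctaCAGCct
Of the 3 sites shown, 2 have C and 1 has T before the AG. The table gives 1 count per row, so it does not say whether reads lay at U7, at these sites or elsewhere in the interval.

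U47924.2 had 38800, 31000 and 18300 CPM in the light libraries 1 to 3 and 7390, 4730 and 3890 CPM in the heavy ones. Every light library was above every heavy one, and light library 3 was the lowest of the light group. The means were 29400 ± 10300 and 5340 ± 1830 CPM (SD, n = 3 each), the log2 fold change was 2.46 ± 0.26 (SE) and the adjusted p was 2.09e-08 by edgeR's quasi-likelihood test. Leaving out each of the 6 libraries in turn kept the call, with log2 fold changes from 2.29 to 2.80. The row alone held 2.65% ± 0.875 of all gene counts in the light fraction and 0.464% ± 0.158 in the heavy one.

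The U47924.2 row was also called in the other lines. The same test called 5 rows in WT (0.0732%), 4 higher in light (0.0585%) and 1 lower (0.0146%), and 280 rows in Q157R (4.1%), 18 higher (0.263%) and 262 lower (3.83%). In WT the row had 6470 to 10400 CPM in light and 2000 to 3560 CPM in heavy libraries, a log2 fold change of 1.63 (edgeR adjusted p = 2.43e-05), and in Q157R the log2 fold change was 1.27 (edgeR adjusted p = 0.0122). The 3 light S34F libraries lay above all light WT and Q157R libraries, and the 3 heavy S34F libraries lay above all heavy ones of those lines. The test of the difference between the S34F and WT fold changes gave 0.83 on the log2 scale with an edgeR adjusted p of 1, and that against Q157R gave 1.19 with an edgeR adjusted p of 0.111, so a difference between the lines did not pass the test. In the WT eCLIP libraries, made from undivided membrane, the row had 5350 and 1340 CPM with U2AF1 and 2020 and 4220 CPM with U2AF2. In RNA-seq of the S34F line it had 0.655 and 0.817 CPM, against 71.8 and 79.0 CPM for C12orf57.

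Among the 62 other tested rows that have a small RNA gene on the opposite strand 0 were called, which at 0.0439% of all rows called says nothing about them. TTI2, on chromosome 8 opposite MAK16 and the snoRNA gene SNORD13, had the most counts of any row, and its log2 fold change was 0.07 ± 0.29 (SE). MFSD11, opposite the splicing factor gene SRSF2 and MIR636, was at 0.24 ± 0.25. AC010761.1, opposite RPL23A and SNORD4A and picked after its value was seen, was at 1.46 ± 0.44 (edgeR adjusted p = 0.792). These 62 rows together held 3.76% ± 0.214 of the light and 3.52% ± 0.0208 of the heavy gene counts (SD, n = 3 each), with every light library above every heavy one. The group was formed after the values were seen, so its shares are a description.

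AC010970.1 is a processed pseudogene on the minus strand at chrY:10197256-10199103, named here because it was 1 of the 3 called rows although the naming rule leaves out pseudogenes and this chromosome. It lies 1.05 kb from RNA5-8SP6, a ribosomal RNA pseudogene on the opposite strand, and no gene overlaps it there. Its transcript shares 90.0% identity over 927 bases with FP671120.4, a long intergenic RNA 1.27 kb from the ribosomal RNA gene RNA5-8SN2 on chromosome 21. Reads that fit both copies could have been left out as aligning to several places or assigned to either. The row had 4060, 2610 and 2360 CPM in the light libraries and 918, 619 and 529 CPM in the heavy ones, without overlap. The log2 fold change was 2.13 ± 0.34 (SE, edgeR adjusted p = 2.25e-04), and it stayed called without any 1 of the 6 libraries (1.92 to 2.42). The light fraction was also higher in WT, at 2.26 (edgeR adjusted p = 1.14e-05), and in Q157R, at 2.61 (edgeR adjusted p = 1.60e-04). RNA-seq of the S34F line had 0 CPM for AC010970.1 in both libraries.

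SPSB4 lies on the plus strand at chr3:141051402-141148611, and no gene on the other strand overlaps its exons. It had 85, 23 and 152 counts in the light libraries (581, 489 and 929 CPM) and 8, 10 and 0 counts in the heavy ones (36.0, 80.4 and 0 CPM). All light values were above all heavy values, on few counts. The log2 fold change was 4.35 ± 0.82 (SE, edgeR adjusted p = 0.0103). The call depended on single libraries: the adjusted p by edgeR was 0.26 without heavy library 1, 0.0922 without heavy library 3 and 0.161 without light library 3. The log2 fold change stayed large in these, at 4.46, 3.61 and 4.06, and was 5.48 without heavy library 2. The log2 fold change was 2.99 in WT and 1.96 in Q157R, with edgeR adjusted p of 0.133 and 0.142. RNA-seq of the S34F line had 0 SPSB4 counts in both libraries.

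**Figure D2:**
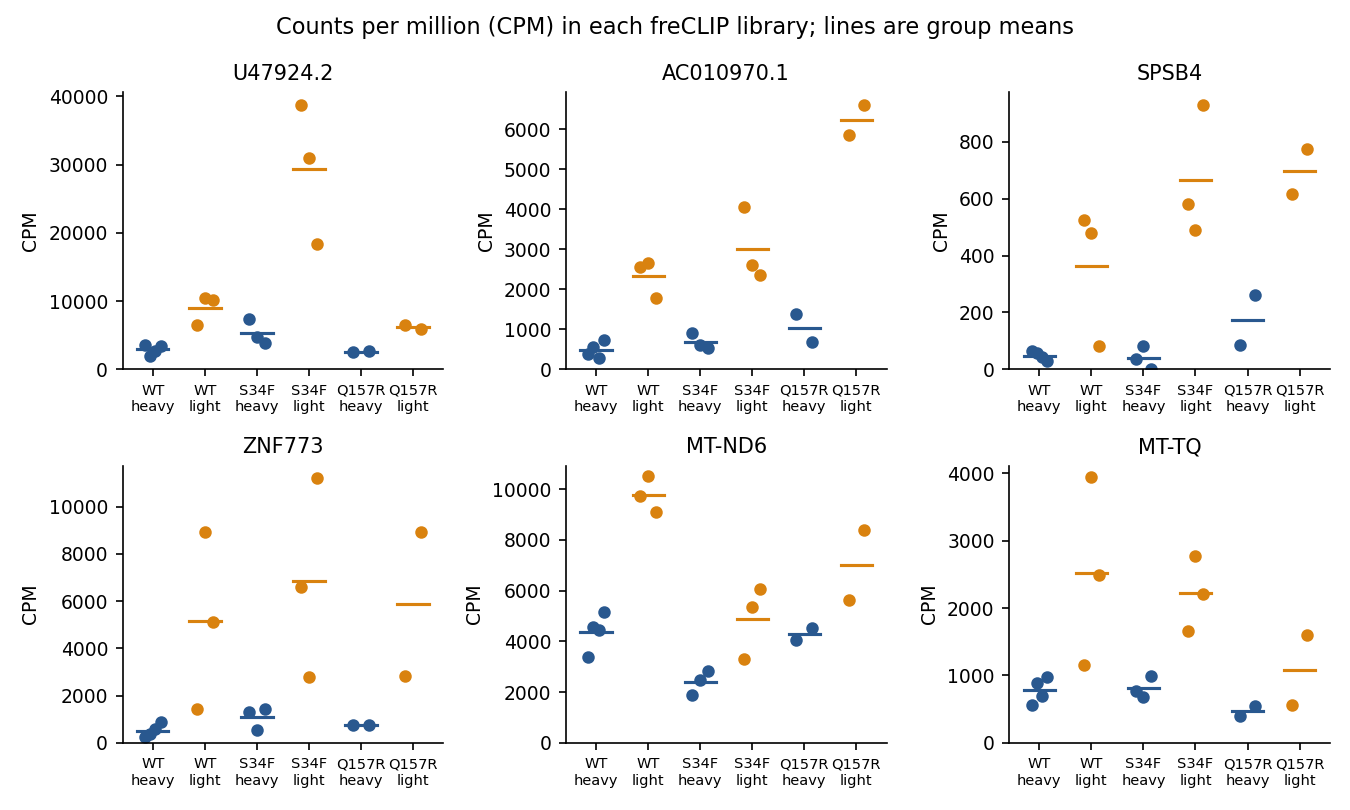
Each point is 1 freCLIP library, in CPM (y axis), for 6 rows in the heavy (blue) and light (orange) fractions of the WT, S34F and Q157R lines, and each short line is the group mean. For U47924.2 the S34F light libraries sit at 18300 to 38800 CPM and those of the other lines at 5830 to 10400. The S34F heavy libraries sit at 3890 to 7390 CPM and the heavy ones of the other lines at 2000 to 3560.

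Of the rows that did not pass the test, 4 had at least 1000 counts and at least a 2-fold light excess. ZNF773, a zinc finger gene of chromosome 19 with no gene opposite its exons, had 6590, 2800 and 11200 CPM in the light and 1310, 523 and 1440 CPM in the heavy libraries. The groups did not overlap, but the light values varied widely, and the log2 fold change of 2.65 ± 0.78 (SE) had an edgeR adjusted p of 1. Without the filter on low counts it was 2.51 and passed the test (edgeR adjusted p = 3.70e-04). With the replicate number as a block it was 2.57 and passed as well (edgeR adjusted p = 3.97e-24). So small a value from 3 S34F pairs is no measure of the strength of the difference. The row did not pass with DESeq2 (adjusted p = 0.0513) or with only the S34F libraries in the fit (edgeR adjusted p = 0.241). It was called in 3 of 14 alternative settings. In WT the log2 fold change was 3.31 and in Q157R 3.00, neither past the threshold. MIF-AS1, opposite the cytokine gene MIF, had 717, 1080 and 2770 CPM in the light and 549, 450 and 810 CPM in the heavy libraries, which overlapped (log2 fold change 1.34 ± 0.40, edgeR adjusted p = 0.792).

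The other 2 were mitochondrial genes of the strand that carries few genes. MT-ND6 had 3290, 5350 and 6050 CPM in the light and 1890, 2490 and 2840 CPM in the heavy libraries, without overlap. Its log2 fold change was 1.02 ± 0.24 (SE) with an edgeR adjusted p of 0.149, and it crossed the threshold with DESeq2 (adjusted p = 0.0289), with RLE scaling in edgeR (0.0169) and without light library 1 (0.0154). MT-TQ, the mitochondrial glutamine tRNA, whose end overlaps MT-TI on the other strand, had 1660, 2780 and 2210 CPM in the light and 765, 683 and 991 CPM in the heavy libraries, also without overlap (1.44 ± 0.37, edgeR adjusted p = 0.457). In WT both rows were called, at 1.16 (edgeR adjusted p = 0.00702) for MT-ND6 and 1.70 (0.0147) for MT-TQ. MT-ND5, a complex I subunit of the main coding strand, had 1160 ± 504 CPM in the light and 1500 ± 312 CPM in the heavy fraction (SD, n = 3 each), and these overlapped.

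Mitochondrial rows as a class held 0.909% ± 0.207 of the light and 0.569% ± 0.0364 of the heavy gene counts, without overlap (exact two-sided permutation p = 0.1, the smallest possible). MT-ND6 and MT-TQ carried this: without them the class held 0.257% ± 0.0889 and 0.289% ± 0.0562, and the groups overlapped (exact permutation p = 0.6). Of the 13 mitochondrially encoded genes of the list that were tested, 0 were called, 3 had a log2 fold change above 0 and 10 below, and their median was -0.15. Over all 6833 rows tested 0.0439% were called and 3929 were below 0, and the median was also -0.15. The count of 0 called therefore says nothing about these genes.

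**Figure D3:**
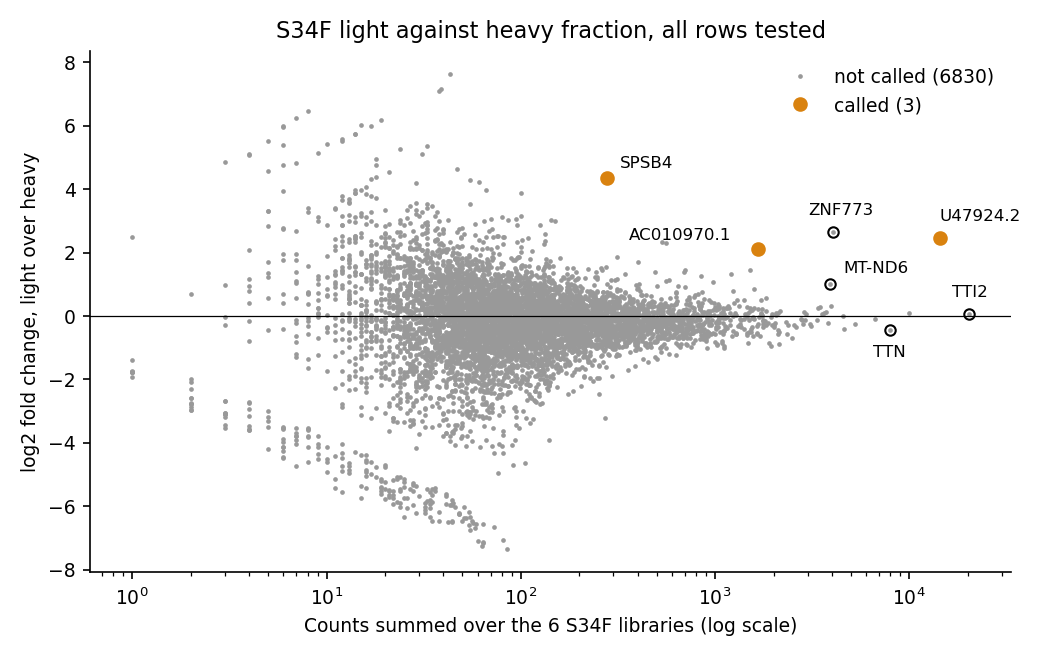
The y axis is the log2 fold change of light over heavy for the 6833 rows tested, the x axis their counts summed over the 6 S34F libraries on a log scale, and orange points are the 3 called rows. Open circles mark named rows that were not called, and the curved lower edge is formed by rows with no count in the light fraction, whose fitted values are no bounds.

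The spread of the differences narrowed as counts rose. Over all 6833 rows 68.6% had a log2 fold change between -1 and 1 (856 above, 1288 below), and with at least 50 counts 77.9% did. Of the 167 rows with at least 1000 counts over the 6 libraries, 160 (95.8%) had a log2 fold change between -1 and 1, 6 were above 1 and 1 was below -1. The 1 below was LHX4, opposite the acyl-CoA binding gene ACBD6, at -1.01 ± 0.42 (SE, edgeR adjusted p = 1), chosen after its value was seen. Among the 1513 rows with at least 200 counts, 93.3% lay within that band, and the median over all rows tested was -0.15, or -0.01 with RLE scaling. Changes are therefore read relative to a centre that the scaling moves by about that much.

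The rows with the highest CPM were of both kinds. U47924.2, among the 5 highest of both fractions, and ZNF773, among the 5 highest of the light fraction only, had the large light excesses described above. TTI2, AL135999.1 and TTN were also among the 5 highest of both fractions, with log2 fold changes near 0 or below. AL135999.1, opposite AP1G2, a subunit of a clathrin adaptor, had 8300, 8650 and 8960 CPM in the light and 7740, 8570 and 7960 CPM in the heavy libraries, with overlap (0.09 ± 0.22). AC009133.1, opposite AC009133.5 on chromosome 16, was at 4990 ± 1010 and 5370 ± 456 CPM (-0.10 ± 0.23). TTN, opposite TTN-AS1, had 5380, 4970 and 4870 CPM in the light and 6620, 6660 and 7330 CPM in the heavy libraries, without overlap, and its log2 fold change of -0.44 ± 0.22 had an edgeR adjusted p of 1.

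Rows whose light and heavy CPM values did not overlap numbered 975 of the 6833 (14.3%), of which 243 were higher in the light fraction (3.56%) and 732 in the heavy one (10.7%). Full separation of 3 against 3 libraries has an exact two-sided permutation p of 0.1. Many rows would therefore separate with no difference between the fractions, and a lack of overlap alone does not mark a row as different. The heavy libraries were the deeper ones, and 240 tested rows had no count in 1 of the fractions. Among the 167 best-counted rows 12 were higher in light and 27 in heavy without overlap. Rows named from these after their values were seen were COX20, opposite HNRNPU, at -0.86 ± 0.45, DONSON, opposite SON, at -0.55 ± 0.33, and AC092069.1, opposite the calreticulin gene CALR, at -0.90 ± 0.40, each with an edgeR adjusted p of 1.

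Next the rows were read by the gene opposite to them, for lists of genes of splicing, of the erythroid line and of RNA metabolism. In none of the 17 lists was a row called in either direction, whether matched by the row's own symbol or by the opposite gene, but with 0.0439% of all rows called and at most 27 tested rows in a list, the count of 0 says nothing about the lists. The U2AF1 row had 0 counts in all 6 libraries, and 17.6 and 19.3 CPM in RNA-seq of the S34F line. Reads that aligned to several places are in no row, so the 0 does not show that U2AF1 RNA was not crosslinked. Its cause was not tested. The U2AF2 row had 8, 2 and 16 counts in the light and 1, 0 and 2 counts in the heavy libraries, too few to be tested. AC008735.2, which lies opposite U2AF2, had 212, 446 and 446 CPM in the light and 158, 201 and 450 CPM in the heavy libraries, which overlapped (0.41 ± 0.45). PLEKHJ1, opposite SF3A2, a subunit of the U2 snRNP, was at 660 and 433 CPM on average (0.60 ± 0.41).

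The 18 rows opposite genes of SR and hnRNP proteins, which bind exons and introns and steer splice site choice, had a median log2 fold change of -0.18, with 9 above 0 and 9 below. NFE2L3, opposite HNRNPA2B1, had 1130, 850 and 892 CPM in the light and 1420, 1330 and 1290 CPM in the heavy libraries, without overlap, and was at -0.49 ± 0.34. MFSD11, opposite SRSF2, had 3370, 3610 and 2640 CPM in the light and 2340, 3160 and 2630 CPM in the heavy libraries, with overlap.

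The 7 rows opposite genes known to be spliced differently in U2AF1-mutant cells had a median of -0.21, with 3 above 0 and 4 below. C5orf66, opposite H2AFY, which encodes the histone variant macroH2A, had 3040, 2490 and 2620 CPM in the light and 3320, 2890 and 3320 CPM in the heavy libraries, with overlap (-0.23 ± 0.25). In the same list FANCA, a Fanconi anemia gene matched by its own symbol and overlapped by ZNF276 on the other strand, had 1470 ± 295 and 1780 ± 154 CPM (SD, n = 3 each), without overlap, and was at -0.28 ± 0.32.

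Rows opposite genes of translation had medians below that of all rows. The 21 rows opposite ribosomal protein genes had a median of -0.49, with 16 below 0 and 5 above, and the 14 opposite translation factor genes had -0.32, with 11 below and 3 above. Against this stand the 3929 of 6833 tested rows that were below 0, and no row of either list was called. Matched by their own symbol, the 11 ribosomal protein rows had a median of -0.81 and the 7 translation factor rows 0.53. AP003352.1, opposite RPL30, was at -0.20 ± 0.29, AC245140.2, opposite RPL10, at 0.11 ± 0.34, and AC068888.1, opposite EIF4B, at -0.20 ± 0.39.

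The 10 rows opposite erythroid genes had a median of -0.36, with 8 below 0. AL135960.1, opposite TAL1, a transcription factor of blood stem and erythroid cells, had 1710, 1610 and 1770 CPM in the light and 1900, 1970 and 2580 CPM in the heavy libraries, without overlap, and its log2 fold change of -0.34 ± 0.27 had an edgeR adjusted p of 1. The 9 rows opposite megakaryocyte and platelet genes had a median of -0.22. AC037198.2, opposite THBS1, the gene of the platelet adhesion protein thrombospondin, varied more between replicates than between fractions, with 1020, 935 and 3590 CPM in the light and 873, 925 and 3590 CPM in the heavy libraries. The 27 rows opposite nuclear-retained long noncoding RNAs had a median of -0.25 and the 7 opposite stress granule genes -0.23.

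**Figure D4:**
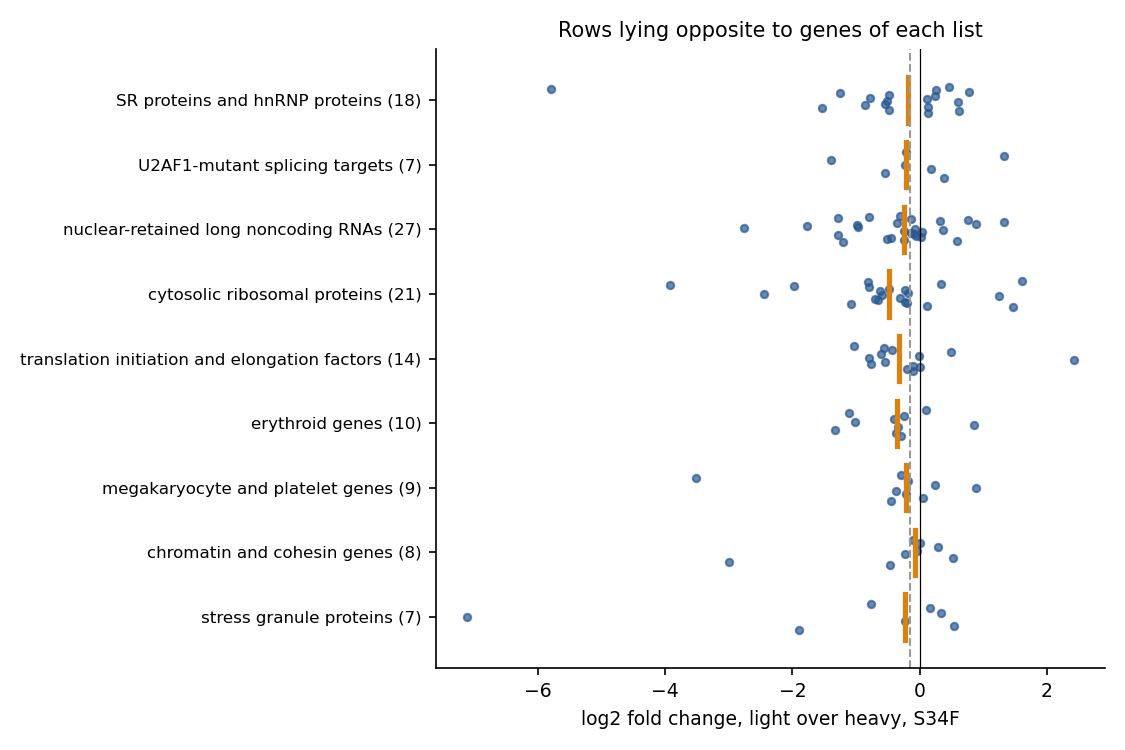
Each point is the log2 fold change of light over heavy (x axis) of 1 row that lies opposite a gene of the list named on the y axis, with the number of rows in brackets, for lists with at least 5 tested rows. Orange bars are list medians, from -0.49 to -0.08, the dashed line is the median of all 6833 rows, -0.15, and no point was called.

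Because U2AF1 reads the end of the intron, the 3′ splice sites that lie inside the rows were also described. For each row the exon sequence was read on the opposite strand wherever an intron of a protein-coding gene ended there, which gave 3069 sites in 1598 of the 6833 tested rows (23.4%). Of these, 99.5% ended in AG, and the base before the AG was C in 70.0%, T in 22.2%, A in 6.26% and G in 1.54%. Of 10 well-counted rows with 1 site, 6 are shown, picked by hand so that sites with C, T and A all appear, with that base, the AG and the first exon base in capitals, since this is the base whose preference S34F is known to change.
H2AFY (row C5orf66), chr5:135343432-135343454, minus strand: tttcatccccgcaccacTAGCtg
ZRANB2 (row ZRANB2-AS1), chr1:71066932-71066954, minus strand: ttgtttctcaatcaatgAAGAtc
THBS1 (row AC037198.2), chr15:39588506-39588528, plus strand: tgtggttcatcttcttaCAGTca
BMP2K (row PAQR3), chr4:78887154-78887176, plus strand: gtttcatcttatttttgCAGAta
MLLT6 (row AC006449.3), chr17:38715592-38715614, plus strand: tcctctctcctctccttCAGGtc
HNRNPUL1 (row TGFB1), chr19:41302645-41302667, plus strand: gggcacttccttcctccTAGCca

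Values by this base were close in the light and heavy fractions. Rows with exactly 1 site had a median log2 fold change of -0.15 where the base was C (626 rows), -0.12 where it was T (250 rows) and -0.19 where it was A (57 rows). The counts in rows with a C site divided by those in rows with a T site were 2.57, 2.61 and 2.82 in the light libraries 1 to 3 and 2.57, 2.55 and 2.71 in the heavy ones, which overlapped (2.67 ± 0.134 and 2.61 ± 0.0872, SD, n = 3 each, exact two-sided permutation p = 0.6). The ratio of A to T was 0.273 ± 0.026 in the light and 0.264 ± 0.013 in the heavy libraries (exact permutation p = 0.8). Rows with a site held 38.1% ± 1.76 of the light and 36.6% ± 0.8 of the heavy gene counts (exact permutation p = 0.3). These ratios count all reads of a row and not the reads at the site, so a change of binding at single sites could be hidden in them.

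The kinds of rows were also compared. Rows annotated as antisense RNA held 27.5%, 28.3% and 26.5% of the gene counts in the light libraries and 25.1%, 25.6% and 25.2% in the heavy ones, without overlap (exact two-sided permutation p = 0.1). Most of this was U47924.2, which held 2.65% of the light and 0.464% of the heavy gene counts. With its counts taken from the antisense rows but left in the total, the shares were 24.8% ± 0.573 and 24.8% ± 0.359. The kept total lowers the light share more than the heavy one. Protein-coding rows held 57.6% ± 0.541 and 58.9% ± 0.799 (exact permutation p = 0.2), and pseudogene rows 6.44% ± 0.447 and 7.14% ± 0.593 (exact permutation p = 0.3). Rows that are themselves small RNAs (snRNA, snoRNA, scaRNA, miRNA or other small RNA) held 0.639% ± 0.101 of the light and 0.771% ± 0.0186 of the heavy counts, without overlap (exact permutation p = 0.1).

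Finally the light-heavy differences of S34F were set beside those of the other lines, which share no library with it. Among the 167 rows with at least 1000 counts, the S34F and WT log2 fold changes had a Pearson coefficient of 0.764 and a Spearman coefficient of 0.586, and 117 rows had the same sign. With Q157R the coefficients were 0.55 and 0.405. Over all 6833 rows, most of them with few counts, the Pearson coefficient with WT was 0.0937. These are descriptions across rows, which are not independent replicates. No row's light-heavy difference was called as differing between S34F and WT (0 of 6833, 0%, with edgeR and 0 with DESeq2). In edgeR 321 had an unadjusted p under 0.05, no more than that threshold would give with no difference. Against Q157R 60 rows were called (0.878%), 57 with the higher and 3 with the lower value in S34F. The whole distribution was shifted there, with a median of 1.09, and the shallowest Q157R light library held 38415 gene counts.

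**Figure D5:**
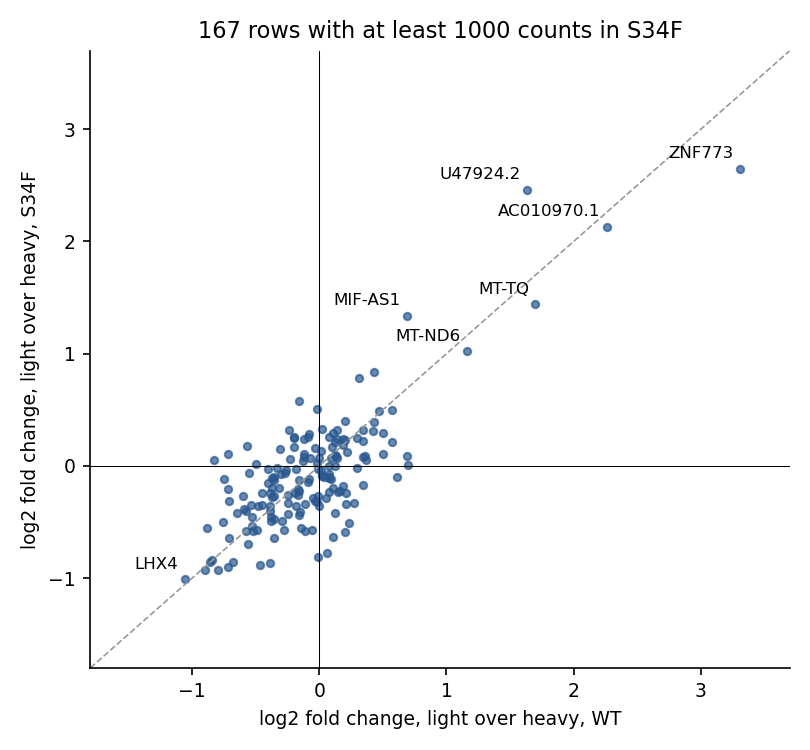
Each point is 1 of the 167 rows with at least 1000 counts over the S34F libraries, with its log2 fold change of light over heavy in WT on the x axis and in S34F on the y axis, and the dashed line marks equal values. U47924.2, AC010970.1, ZNF773, MT-TQ and MT-ND6 are above 1 in both lines, and MIF-AS1 is at 1.34 in S34F and 0.69 in WT.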

How the data were processed

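The deposited table holds raw read counts per annotated gene, per the file headers and the whole-number values, and closing lines of reads that name no gene (all but 1.15% to 1.91% of the reads in these 6 libraries), which entered neither library sizes nor tests. GRCh38.p10 is the build in the submitters' processing notes, which list the tools without roles: DESeq2, edgeR, HTSeq, HISAT2, SAMtools, cutadapt and STAR (2.5.3a and 2.7.0f). Strand setting and annotation release are not given in the sources used here. Of 58347 rows, 58084 matched GENCODE release 29, which gave symbols, GRCh38 positions and the opposite-strand gene that overlaps a row's exons most. The 17 freCLIP libraries were fitted with edgeR 4.0.16 in R 4.3.3 (TMM, filterByExpr with minimum count 10, 1 mean per group, robust quasi-likelihood F test, Benjamini-Hochberg over all 6833 rows, threshold 0.05). Row classes were compared with exact permutation tests. The fit was tested on simulated data. Alternatives were a replicate block, DESeq2 1.42.0, RLE scaling, other filters, fewer libraries in the fit and leaving out each library. Transcripts were compared with BLAST 2.17.0.

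The comparison and the 17 gene lists were chosen with earlier results of these data known. Named rows are those of U2AF1 and U2AF2 and opposite to them, the 5 most abundant per fraction, the called rows with at least 50 counts and no overlap that are neither pseudogenes nor Y-linked (up to 10 each way), up to 3 called or else the 2 most abundant rows per list, and 4 each way per test of a difference. Rows called with the replicate block, and others marked in the text, were named after their values were seen. Of the markers and splice sites examined, 1 of each is not reported here.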

Additional observations from a re-analysis of the deposited data

Results flagged for a closer look

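The light-heavy difference differed between S34F and Q157R in 60 rows, by the test of the difference itself in edgeR (adjusted p under 0.05). Of these, 57 had the higher value in S34F, and the median over all rows was 1.09. The rows named from them had no count in at least 1 library of each Q157R comparison, so their fitted differences are no bounds.

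SEC22C, opposite SS18L2, differed by 8.78 on the log2 scale: it had 39, 17 and 54 counts in the S34F light and 85, 46 and 309 in the S34F heavy libraries, and 0 and 0 counts in the Q157R light against 33 and 125 in the Q157R heavy ones. PTCD1, opposite the splicing factor gene BUD31, differed by 9.50, PLEKHG4, opposite KCTD19, by 8.84 and DCDC2B, opposite TMEM234, by 8.81, and each had 0 counts in both Q157R light libraries. SEC22C was called in all 14 alternative settings, and PTCD1, PLEKHG4 and DCDC2B in 3, 2 and 4 of 14. The call of each of these 3 was lost with the replicate block (edgeR adjusted p = 0.119, 0.126 and 0.0512), with RLE scaling (0.074, 0.092 and 0.0556) and with no filter (0.159, 0.164 and 0.0872). CSPG4, opposite AC105020.4, differed by -11.22 and PRPF8, a core spliceosome protein gene opposite AC130343.2, by -9.84, called in 6 and 3 of 13 settings: each had all its Q157R light counts in library 3 (66 and 109) and at most 2 counts in each of the other Q157R libraries. Without Q157R light library 3 these values were -2.49 and -0.16.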

How the results depend on the processing

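The 3 calls between the S34F fractions were 8 with the replicate block, 6 with DESeq2, 5 with only the S34F libraries in the fit and 14 with that and the replicate block, 4 with RLE scaling or no filter, 3 on nuclear chromosomes or with a minimum count of 30, and 2 to 4 when each library was left out. All were higher in the light fraction. U47924.2 and AC010970.1 were called in all 14 settings, SPSB4 in 11. The block, which rests on 3 S34F pairs, added ZNF773 (2.57, edgeR adjusted p = 3.97e-24), MT-ND6, MT-TQ, SMAD6 and MIF-AS1. The replicate numbers were not treated as pairs in the main fit. Residuals of same-numbered light and heavy libraries correlated at 0.0669, 0.0396 and 0.125 over 4857 rows, and those with other numbers at -0.0989 to 0.052. Heavy libraries 1 and 3 correlated best with the light library of their own number, and heavy library 2 with light library 1 (0.052).

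The difference from WT gave 0 calls in every setting run, including without each WT library. That from Q157R gave 60, and 35 with the block, 199 with DESeq2, 10 with RLE scaling, 7 with no filter, 8 to 38 without each S34F library and 19 to 614 without each Q157R library (chosen after seeing the data); the highest was without Q157R light library 2. Without the 10 most abundant rows, the light minus heavy share was 0.606 percentage points instead of 2.11 for antisense rows and -0.113 instead of -1.21 for protein-coding rows. The causes were not tested. With 1 count worth up to 21.2 CPM, rows with few counts limit what can be seen.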

Other observations

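SMAD6, an inhibitor of BMP signalling with no gene opposite its exons, had 134, 7 and 223 counts in the S34F light and 27, 6 and 162 in the heavy libraries (915, 149 and 1360 against 122, 48.2 and 312 CPM). The groups overlapped (log2 fold change 2.30 ± 1.49, SE, edgeR adjusted p = 1). In the WT eCLIP libraries its U2AF1 replicates were at 25.2 and 1150 CPM. ZNF773 was at 869 and 3010 CPM in U2AF1 eCLIP and at 558 and 2280 CPM in U2AF2 eCLIP, so both rows varied severalfold between replicates of one assay.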
